A study of Rattus norvegicus with 8 samples.

Results

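The circadian clock genes Per1, Per2, Per3, Cry1, Cry2, Clock, Arntl, Nr1d1, Nr1d2 and Dbp were followed in rat hippocampal neuronal cultures. They were taken by symbol from the authors' deposited comparison table and joined to the gene counts by Ensembl identifier, and all 10 were found and tested, among 32623 annotated and 11740 tested genes. The cultures came from wild type rats of strain SD, were 18 days in vitro, and received either vehicle (4 libraries) or PAM (4 libraries), which stands for positive allosteric modulator, here of the NMDA receptor. Such a compound strengthens the response of this calcium-permeable glutamate receptor to its agonists. Which compound it was, at what dose, for how long and at what time of day the cultures were collected were not stated in the labels. The labels do not name separate cultures, so p-values measure the spread between these libraries, which may be technical.

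The mammalian clock is a transcriptional feedback loop that runs in nearly every cell, neurons and astrocytes included. CLOCK and BMAL1, the product of Arntl, pair and bind E-box sequences to switch on the Period and Cryptochrome genes, whose proteins return to the nucleus and inhibit that pair. A second loop runs through the REV-ERB receptors, products of Nr1d1 and Nr1d2, which are switched on through E-boxes and repress Arntl through ROR response elements, and Dbp is an output factor that acts on D-boxes. In neurons Per1 and Per2 are also known as rapidly inducible genes, through cAMP response elements (CREs) that calcium entry and CREB act on.

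Sequences around the starts of these genes were searched for the motifs of the loop. RefSeq windows of 300 bases on GRCr8 (250 before to 50 after a start) were found for 9 of the 10 members, 11 windows in all, and were searched on both strands for the E-box CACGTG, the related E-prime box CACGTT, the D-box TTATGTAA, the CRE TGACGTCA and the ROR response element (RORE). Of all 33469 windows in the RefSeq table, 6.42% held the E-box, 4.83% the E-prime box, 0.893% the D-box, 1.83% the CRE and 0.356% the RORE. Among the members, Per2, Cry2, Arntl and Nr1d1 held at least 1 of them. The sequences of 3 are shown because each holds a different motif of the loop, with the matched letters in capitals: Per2 at chr9:99496944-99497243 (minus strand), with a D-box starting 192 bases and an E-prime box 62 bases before the start; Arntl, named Bmal1 in RefSeq, at chr1:176766078-176766377 (plus strand), with a RORE starting 20 bases before the start; and the second Nr1d1 window at chr10:84229405-84229704 (minus strand), with an E-box starting 191 bases before it.
Per2: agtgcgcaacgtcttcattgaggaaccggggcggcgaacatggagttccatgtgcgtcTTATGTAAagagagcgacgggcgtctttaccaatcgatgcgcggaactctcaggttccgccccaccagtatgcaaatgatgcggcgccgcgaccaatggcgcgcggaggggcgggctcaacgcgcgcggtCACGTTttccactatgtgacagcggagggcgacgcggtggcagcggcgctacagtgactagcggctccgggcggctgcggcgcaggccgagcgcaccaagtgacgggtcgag
Arntl: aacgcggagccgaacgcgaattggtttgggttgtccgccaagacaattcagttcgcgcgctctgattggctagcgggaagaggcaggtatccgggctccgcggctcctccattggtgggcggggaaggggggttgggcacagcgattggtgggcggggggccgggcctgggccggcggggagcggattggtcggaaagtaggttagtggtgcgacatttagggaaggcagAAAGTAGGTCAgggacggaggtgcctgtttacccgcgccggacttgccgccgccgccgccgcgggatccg
Nr1d1: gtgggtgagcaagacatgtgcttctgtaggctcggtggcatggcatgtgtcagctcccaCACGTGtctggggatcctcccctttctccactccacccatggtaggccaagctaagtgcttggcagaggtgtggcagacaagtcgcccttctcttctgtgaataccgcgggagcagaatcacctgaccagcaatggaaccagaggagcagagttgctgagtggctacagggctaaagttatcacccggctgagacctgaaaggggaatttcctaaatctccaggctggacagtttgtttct
The Nr1d1 window shown lies wholly inside the span RefSeq gives that gene, as do the windows of Per1 and Per3 and the second window of Clock. The Per1 window held 0 of the 5 motifs, as did those of Per3, Clock, Nr1d2 and Dbp; this says only that these letters are not in those 300 bases. The E-prime box was also found in Cry2, starting 212 bases before its start, and in the first Nr1d1 window, 174 bases before. A motif match is a description of the sequence, and its use in these cultures was not measured.

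Libraries held 2960406 to 4389430 gene counts. PAM 3 and PAM 4 stood apart from the other 6 in that, relative to the mean of all 8 libraries, their counts fell off in longer genes. The slopes were -0.085 and -0.13 on the log2 scale for each doubling of exonic length, with 0.0052 to 0.063 in the rest. As the mean includes PAM 3 and PAM 4, the slopes of the rest depend on them too. The trend bears on long genes such as Clock (9419 exonic bases), Per3 (6466) and Per2 (5783). The marker lists also differed between the groups. Of all tested genes, 9.00% rose and 9.89% fell (edgeR, adjusted p under 0.05), to be read beside the counts below. Pan-neuronal markers (5 of 6 matched) had a summed level of 2803 to 3241 CPM (counts scaled to a library size of 1e6) in vehicle and of 2064 to 2500 CPM in PAM libraries, and 3 of 5 tested fell and 0 rose, whereas the 8 astrocyte markers summed to 6237 to 6564 CPM and 9133 to 11113 CPM, with 5 risen and 0 fallen. Excitatory neuron markers fell in 3 of 7 tested genes, inhibitory neuron markers fell in 2 and rose in 1 of 7, oligodendrocyte lineage markers rose in 4 and fell in 1 of 8, ependymal and choroid plexus markers rose in 3 of 4, endothelial and mural markers in 1 of 2, and cell division markers in 6 of 6. The 4 microglia markers matched summed to at most 29.1 CPM in any library, and the 1 tested did not pass. In RNA from mixed cultures, fewer cells of a type and less RNA per cell cannot be told apart, and the part of these shifts in the clock gene values was not tested.

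Most clock genes did not pass the test. Per1 fell by 26.0%, and it was the only member called, by edgeR's quasi-likelihood test at a Benjamini-Hochberg adjusted p under 0.05. Thus 1 of 10 members was called, against 18.9% of all tested genes; 1 of 10 fell, against 9.89% of all tested genes, and 0 of 10 rose, against 9.00%. With the same test unadjusted p fell under 0.05 for 1 member that was higher, Cry1, and DESeq2 called 0 members higher and 1 lower. An unadjusted p that low was common: Cry1, at 0.0358 (edgeR), ranked 3332 by p among the 11740 tested genes. For the 9 members other than Per1 the edgeR adjusted p ran from 0.126 to 0.951. The median log2 fold change of the 10 was -0.11 (range -0.43 to 0.45), against 0.021 for all tested genes, and 7 were below 0 and 3 above. Their median absolute log2 fold change was 0.21, against 0.29 for all tested genes, at a median standard error of 0.18 against 0.20. In the authors' deposited table Per1 was likewise the 1 member under 0.05 (log2 fold change -0.44, adjusted p = 0.0356), with the others between 0.143 and 0.947.

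**Figure D1:**
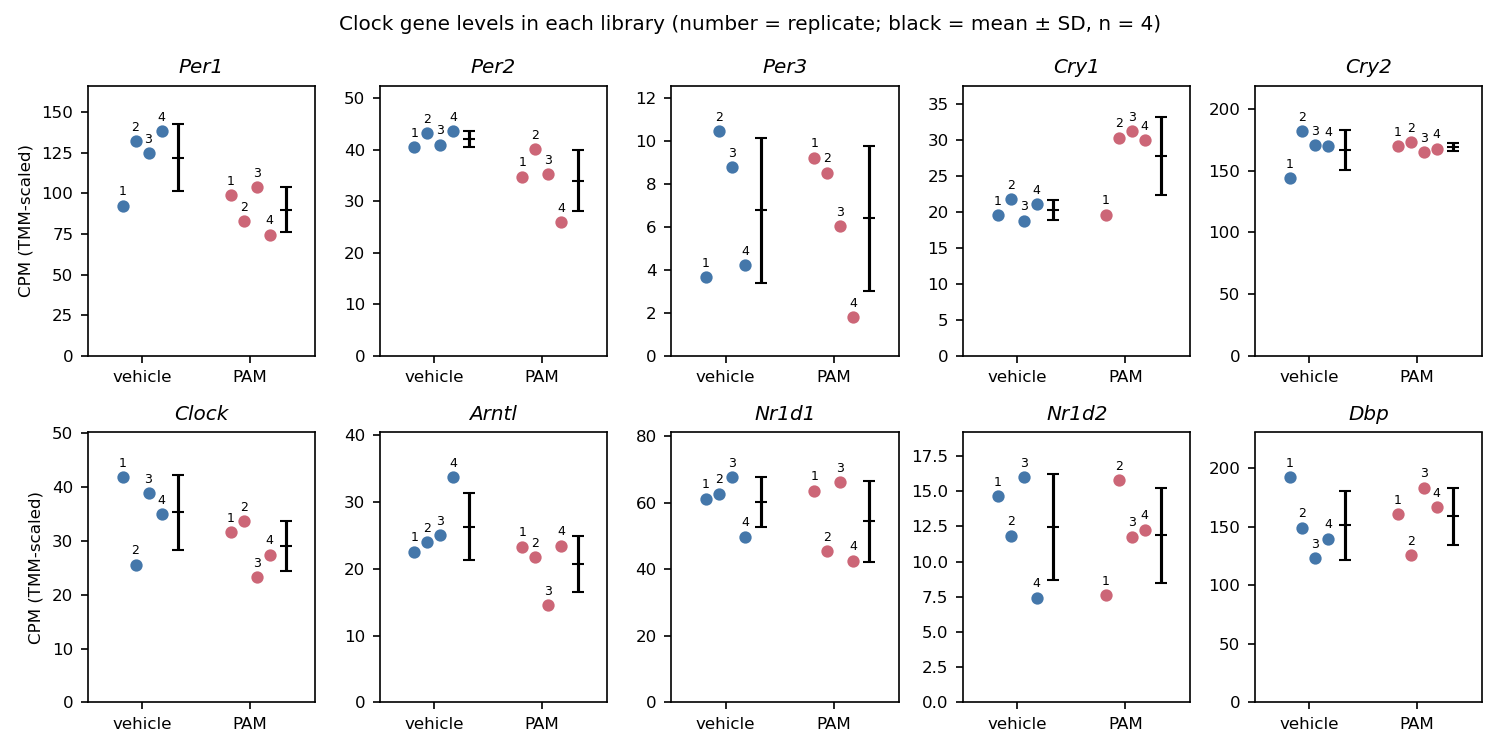
Level of each of the 10 clock genes in TMM-scaled CPM (vertical axis, from 0) in the 4 vehicle and 4 PAM libraries; points are libraries, numbered by replicate, and black marks are mean ± SD. Per2 is the 1 gene whose groups do not overlap; Per1 overlaps through vehicle 1, and Cry1 through PAM 1.

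The Period genes encode the rhythmic inhibitors of the loop. Per1 (ENSRNOG00000007387; Rnor_6.0 chromosome 10, 55687050 to 55695994, plus strand) stood at 92.4, 132, 125 and 138 CPM in vehicle (replicates 1 to 4) and at 99.1, 82.9, 104 and 74.6 CPM in PAM libraries. Vehicle 1 was low and lay among the PAM libraries, and the other 3 vehicle libraries lay above every PAM library. The means were 122 ± 20.5 and 90.1 ± 13.6 CPM (SD over 4 libraries each), and the log2 fold change was -0.43 ± 0.14 (SE; 95% interval -0.73 to -0.14; edgeR, adjusted p = 0.0369). This call did not hold in every fit. Leaving out vehicle 2, 3 or 4, or PAM 2 or 4, gave adjusted p-values of 0.123, 0.085, 0.133, 0.0639 and 0.0647 in edgeR, and removal of the length trend 0.0631 (range over 16 alternatives 0.00966 to 0.133), while the log2 fold change kept its sign throughout, from -0.54 without vehicle 1 to -0.36 without PAM 4.

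Per2 (chromosome 9, 98555169 to 98597359, minus strand), the paralogue of Per1, was at 40.5, 43.2, 41.0 and 43.7 CPM in vehicle and at 34.8, 40.1, 35.3 and 26.0 CPM in PAM libraries. All 4 PAM libraries lay below all 4 vehicle libraries, PAM 2 by less than 1 CPM, and PAM 4 was the lowest. Groups that do not overlap were found for this 1 of 10 members, against 22.3% of all tested genes. The means were 42.1 ± 1.56 and 34.0 ± 5.89 CPM, and the difference did not pass (log2 fold change -0.30 ± 0.16, 95% interval -0.64 to 0.04; edgeR, adjusted p = 0.218). Without both PAM 3 and PAM 4 it was -0.15, and with the length trend removed -0.22.

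Per3 (chromosome 5, 168086998 to 168123395, minus strand) varied widely between libraries of the same group. Its counts were 12, 38, 28 and 13 in the vehicle libraries and 40, 40, 22 and 5 in the PAM libraries, or 3.66 to 10.5 CPM and 1.80 to 9.22 CPM. Each group spanned a wide range, and PAM 4 was the lowest of all 8 libraries. The log2 fold change of -0.053 ± 0.45 had a 95% interval from -0.99 to 0.89, or 0.503- to 1.85-fold (edgeR, adjusted p = 0.951); without both PAM 3 and PAM 4 it was 0.39.

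The Cryptochromes bind the Period proteins and carry most of the direct inhibition of CLOCK and BMAL1. Cry1 (chromosome 7, 24534615 to 24634097, plus strand) had the largest upward value of the members, at 19.5, 21.7, 18.8 and 21.0 CPM in vehicle and 19.6, 30.3, 31.2 and 29.9 CPM in PAM libraries. PAM 2, 3 and 4 lay together above every vehicle library, and PAM 1 lay within the vehicle range. The means were 20.3 ± 1.36 and 27.8 ± 5.47 CPM. The log2 fold change of 0.45 ± 0.20 (95% interval 0.03 to 0.86) reached an unadjusted p of 0.0358 but not the threshold after adjustment (edgeR, adjusted p = 0.126), and it was 0.59 without PAM 1 (adjusted p = 0.0508, range over 16 alternatives 0.0508 to 0.349).

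Cry2 (chromosome 3, 81314149 to 81344110, minus strand) was the most precisely measured member. It was at 144, 182, 171 and 170 CPM in vehicle and at 170, 173, 165 and 168 CPM in PAM libraries, with means of 167 ± 16.2 and 169 ± 3.37 CPM. The groups overlapped fully, with vehicle 1 the lowest and vehicle 2 the highest library. The log2 fold change of 0.020 ± 0.10 had a 95% interval of -0.20 to 0.24, or 0.871- to 1.18-fold. Within libraries, the log2 ratio of Cry1 to Cry2 was -3.0 ± 0.12 in vehicle and -2.61 ± 0.32 in PAM libraries, and PAM 1, at -3.08, again lay in the vehicle range of -3.15 to -2.85; this ratio was not tested.

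**Figure D2:**
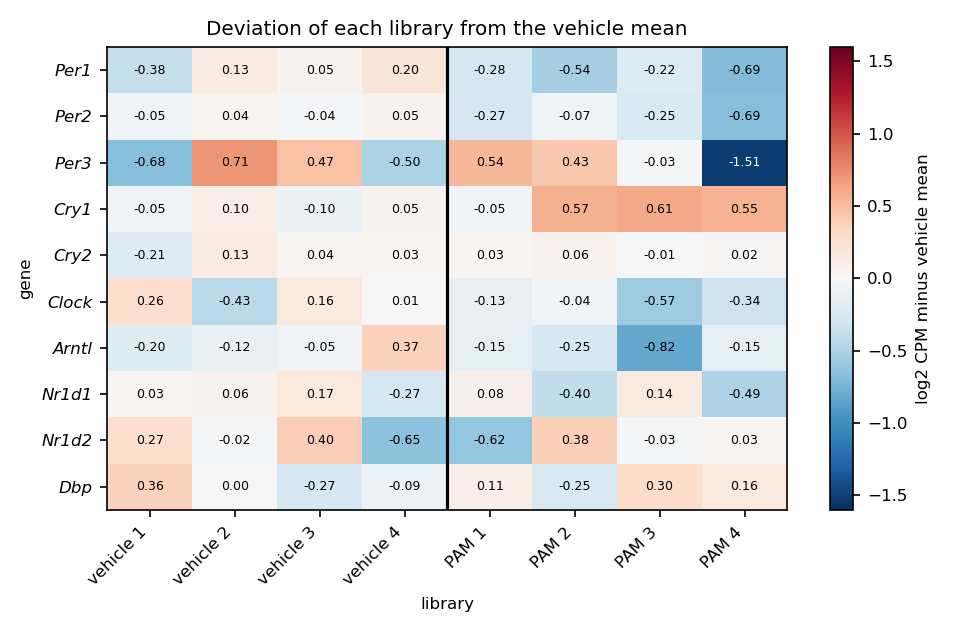
Deviation of log2 CPM from the vehicle mean (colour and printed value) for each clock gene (rows) in each library (columns, vehicle left of the line). The row of Cry1 is raised in PAM 2 to 4 (0.55 to 0.61). The rows of Per1, Per2, Clock and Arntl are below 0 in all 4 PAM libraries. PAM 4 holds the lowest values of Per1, Per2, Per3 and Nr1d1.

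The activator pair was lower in the PAM means without passing. Arntl (chromosome 1, 178039063 to 178137465, plus strand), which encodes BMAL1, was at 22.6, 23.9, 25.0 and 33.6 CPM in vehicle and 23.3, 21.7, 14.5 and 23.4 CPM in PAM libraries. PAM 3 was the low library and vehicle 4 the high one, and the other 6 lay between 21.7 and 25.0 CPM. The means of 26.3 ± 5.0 and 20.7 ± 4.22 CPM gave a log2 fold change of -0.34 ± 0.21 (95% interval -0.78 to 0.10; edgeR, adjusted p = 0.283). Its range over the 16 alternatives was -0.40 to -0.20. Of the 4 members with a motif in a promoter window, Per2 was at -0.30, Arntl at -0.34, Nr1d1 at -0.15 and Cry2 at 0.020 on the log2 scale. None of them passed (edgeR), where 18.9% of all tested genes did. Members whose windows held no motif were Per1 at -0.43, Clock at -0.28, Nr1d2 at -0.073, Per3 at -0.053 and Dbp at 0.072. The windows of Per1 and Per3 lie wholly inside the spans of their genes. Holding no motif there does not make these genes ones without it, so the lists cannot be compared for a bearing of the motifs, which was not tested.

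Clock (chromosome 14, 34446616 to 34502218, plus strand), whose product is the DNA-binding partner of BMAL1, was at 41.8, 25.6, 38.8 and 34.9 CPM in vehicle and 31.6, 33.7, 23.3 and 27.4 CPM in PAM libraries. Vehicle 2 lay among the PAM libraries, so the groups overlapped. The log2 fold change was -0.28 ± 0.19 (95% interval -0.67 to 0.12; edgeR, adjusted p = 0.338). Clock has the longest exons of the 10 genes, and its value was -0.12 with the length trend removed. It was -0.094 without both PAM 3 and PAM 4, the libraries with that trend. Without both, the shortest members moved too. Arntl (2973 exonic bases) went from -0.34 to -0.21 and Cry1 (2922) from 0.45 to 0.31. Nr1d1 (2549) went from -0.15 to -0.14 and Dbp (1702) from 0.072 to -0.067. The part of the length trend in the Clock value was not tested.

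The REV-ERB genes, which encode haem-binding repressors of Arntl, overlapped between groups. Nr1d1 (chromosome 10, 86683875 to 86690815, minus strand) was at 61.3, 62.8, 67.6 and 49.8 CPM in vehicle and 63.6, 45.4, 66.3 and 42.5 CPM in PAM libraries. PAM 1 and PAM 3 lay within the vehicle range, and PAM 2 and PAM 4 below it. The log2 fold change was -0.15 ± 0.16 (95% interval -0.49 to 0.19; edgeR, adjusted p = 0.584), and over the 8 fits without 1 library it ran from -0.25 without PAM 3 to -0.053 without PAM 4. Nr1d1 is the 1 member that shares exon bases with another gene: 263 of its 2549 exonic bases (10.3%) lie opposite the end of Thra, a thyroid hormone receptor gene on the plus strand that held 23168 counts over the 8 libraries against 1648 for Nr1d1. No source used here says whether the counting used strand, so reads from the shared stretch cannot be told apart. Thra itself was at 867 ± 24.5 and 770.2 ± 113 CPM and did not pass (log2 fold change -0.17 ± 0.11; edgeR, adjusted p = 0.291).

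Nr1d2 (chromosome 15, 8730871 to 8757165, plus strand) was thinly counted, with 23 to 51 counts in the vehicle and 33 to 74 in the PAM libraries. It was at 14.6, 11.8, 16.0 and 7.44 CPM in vehicle and 7.61, 15.8, 11.8 and 12.3 CPM in PAM libraries, so each group held 1 library near 7.5 CPM and the rest between 11.8 and 16.0 CPM. The log2 fold change was -0.073 ± 0.30 (95% interval -0.70 to 0.55; edgeR, adjusted p = 0.895), and without PAM 1 it was 0.097.

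Dbp (chromosome 1, 101687855 to 101692846, plus strand), a PAR bZIP output factor and one of the most strongly rhythmic clock targets in many tissues, was at 192, 149, 123 and 140 CPM in vehicle and 161, 126, 183 and 167 CPM in PAM libraries. The groups overlapped over nearly their whole ranges, with vehicle 1 the highest and vehicle 3 the lowest. The means were 151 ± 29.3 and 159 ± 24.3 CPM and the log2 fold change was 0.072 ± 0.14 (95% interval -0.22 to 0.37; edgeR, adjusted p = 0.774). In cells that cycle in step, E-box output and the RORE-controlled Arntl peak at opposite times, and their ratio is a common readout of the loop. Whether the cells of these cultures cycled in step was not measured, so the ratios are given as values only. The log2 ratio of Dbp to Arntl was 3.06, 2.61, 2.27 and 2.04 in vehicle libraries and 2.76, 2.50, 3.61 and 2.80 in PAM libraries. PAM 3, the library with the lowest Arntl, was the highest, and the other 3 PAM libraries lay in the vehicle range. The ratio of Nr1d1 to Arntl was highest in PAM 3 too, at 2.15 against 0.56 to 1.43 in the other 7 libraries. Both ratios rest on the same low Arntl value in PAM 3 and are not separate observations. These ratios were not tested.

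**Figure D3:**
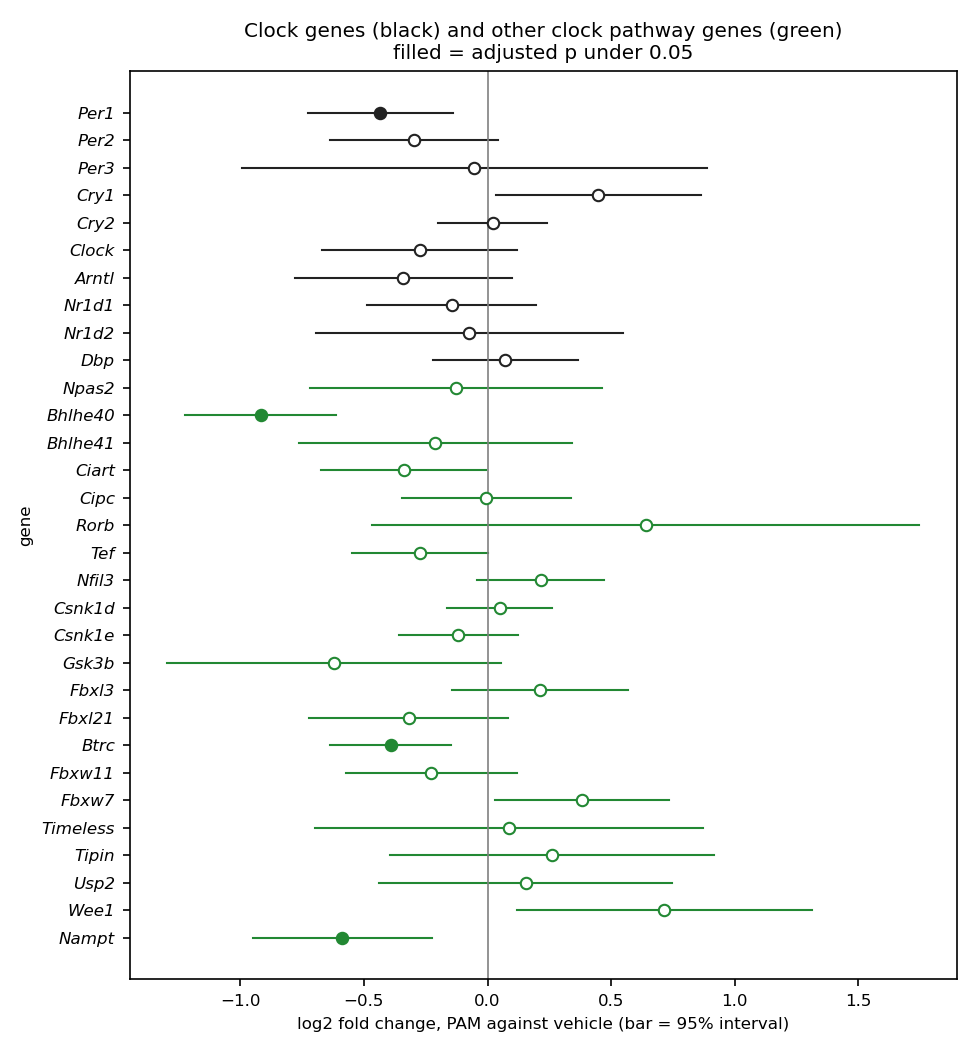
Log2 fold change of PAM against vehicle (horizontal axis) with its 95% interval for the 10 clock genes (black) and the 21 tested other clock pathway genes (green); filled points passed edgeR at an adjusted p under 0.05. Per1, Bhlhe40, Btrc and Nampt are filled and all 4 lie below 0; Per3 and Rorb have the widest intervals among the genes drawn.

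Levels of different genes are comparable only per exonic length, here as CPM per kilobase of exon. In vehicle libraries Dbp was the highest (88.8 ± 17.2 CPM per kilobase), followed by Cry2 (42.0 ± 4.08), Per1 (30.1 ± 5.06), Nr1d1 (23.7 ± 2.96), Arntl (8.85 ± 1.68), Per2 (7.28 ± 0.27), Cry1 (6.94 ± 0.46), Clock (3.75 ± 0.75), Nr1d2 (2.70 ± 0.82) and Per3 (1.05 ± 0.52). Neighbours whose libraries overlapped were Per1 with Nr1d1, Per2 with Cry1, Clock with Nr1d2, and Nr1d2 with Per3; the other neighbours were apart. Thus within each paralogue pair 1 member predominated: Cry2 over Cry1, Nr1d1 over Nr1d2, and Per1 over Per2 and Per3. In PAM libraries the order changed only in the middle, where Cry1 (9.50 ± 1.87 CPM per kilobase), Arntl (6.98 ± 1.42) and Per2 (5.89 ± 1.02) overlapped one another in that order.

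**Figure D4:**
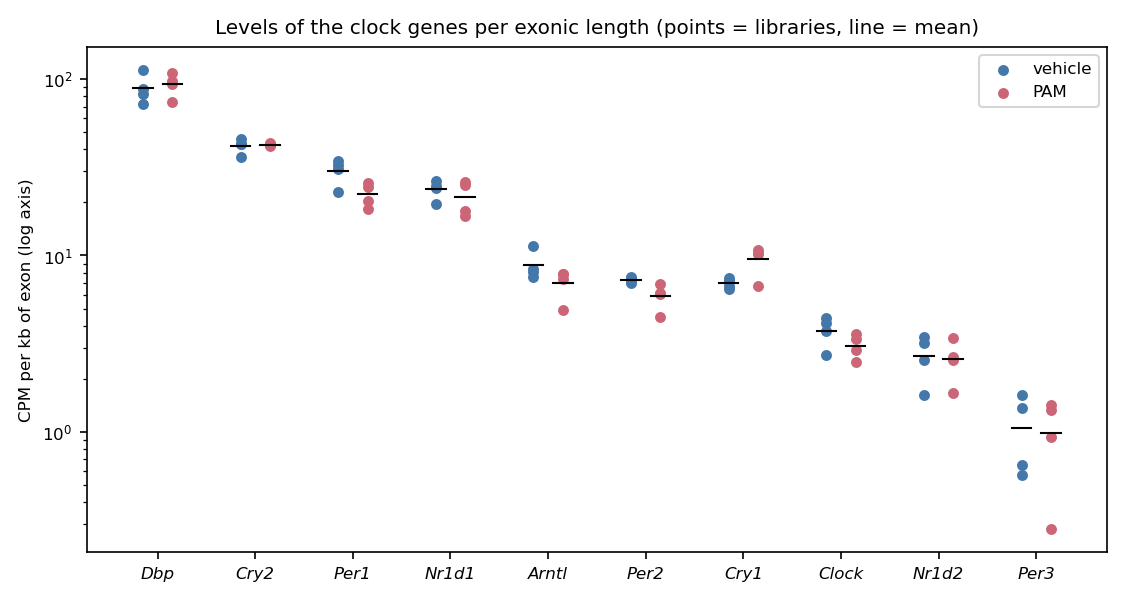
Level per exonic length (CPM per kilobase of exon, log axis) of the 10 clock genes, ordered by their vehicle mean; points are libraries and lines group means. Levels run from 88.8 CPM per kilobase for Dbp to 1.05 for Per3 in vehicle, and the order of the 4 highest is the same in both groups.

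The members also differed in how much they varied between libraries of 1 group. Cry2 varied by 9.71% in vehicle and 2.0% in PAM libraries (SD over mean), at counting errors of 4.26% and 3.91%. Per3 varied by 49.6% and 52.5%, at 21.0% and 19.3% from counting, and Nr1d2 by 30.2% and 28.2%, at 15.6% and 14.7%. Per2 varied by 3.71% in vehicle, below its counting error of 8.48%, and was more spread in PAM libraries, at 17.3%. Cry1 in vehicle (6.70% against 12.2% from counting) and Cry2 in PAM libraries also lay below their counting errors. Libraries did not rank alike across genes: PAM 4, the library with the fewest counts, was the lowest of all 8 for 4 members, vehicle 3 and PAM 3 for 2 each, and vehicle 1 and vehicle 4 for 1 each. The median deviation of the 10 members from the vehicle mean was -0.24 log2 units in PAM 4 and between -0.090 and -0.030 in the other 3 PAM libraries.

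Other genes of the clock machinery gave a similar picture. Of 25 listed, 24 were matched and 21 tested; 3 fell, against 9.89% of all tested genes, and 0 rose (edgeR, adjusted p under 0.05), with 4 lower and 2 higher at an unadjusted p under 0.05 (the 3 called with Ciart, and Fbxw7 with Wee1, the uncalled ones named after their values were seen), and DESeq2 called 3 lower and 0 higher. An unadjusted p that low was common: Ciart, at 0.0462 (edgeR), ranked 3640 by p among the 11740 tested genes. The median log2 fold change of the 21 tested clock genes was -0.12 (range -0.92 to 0.71). Bhlhe40, an activity-inducible repressor that competes for E-boxes (chromosome 4, 140703619 to 140709319), was at 82.6, 79.6, 83.9 and 102 CPM in vehicle and 48.6, 55.4, 42.4 and 36.1 CPM in PAM libraries. The groups lay far apart, and the log2 fold change of -0.92 ± 0.15 passed in the main test (edgeR, adjusted p = 0.000225) and in all 16 alternatives (edgeR and DESeq2, adjusted p 4.35e-08 to 0.00229). This fall, from 86.9 ± 9.95 to 45.6 ± 8.31 CPM, was larger than that of any of the 10 members.

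Btrc, which encodes the ubiquitin ligase subunit that marks Period proteins for degradation, was at 84.1, 77.9, 81.4 and 78.3 CPM in vehicle and 64.3, 62.5, 60.2 and 57.7 CPM in PAM libraries. The groups did not overlap and the spread within each was small (log2 fold change -0.39 ± 0.12; edgeR, adjusted p = 0.0243). Nampt, the enzyme that limits NAD synthesis and a clock-controlled gene, was at 81.7, 66.1, 71.7 and 86.7 CPM in vehicle and 48.2, 71.0, 46.8 and 35.7 CPM in PAM libraries. PAM 2 lay among the vehicle libraries, and the log2 fold change was -0.59 ± 0.17 (edgeR, adjusted p = 0.0229). Both calls ended in some edgeR fits: Btrc without any 1 of the vehicle libraries (adjusted p 0.0534 to 0.0667) and with the length trend removed (0.097; range over 16 alternatives 0.0172 to 0.141), and Nampt without vehicle 1 or 4 or PAM 1 or 3 (0.0581 to 0.0865; range over 16 alternatives 0.001 to 0.103). Omitting PAM 3 together with PAM 4 put Nampt at -0.34. By role, the 4 repressors of E-box transcription ran from -0.92, for Bhlhe40, the 1 called, to -0.0060, which is close to 0. The 8 kinases and ubiquitin ligases had 5 below and 3 above 0 with 1 called, and of the 3 clock-controlled outputs 1 was called. The ROR receptors (1 of 3 tested), PAR bZIP factors with Nfil3 (2 of 3 tested), the Timeless complex (2 of 2 tested) and the activator partners (1 of 2 tested) had 0 called by edgeR, as by DESeq2, and 0 at an unadjusted p under 0.05.

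**Figure D5:**
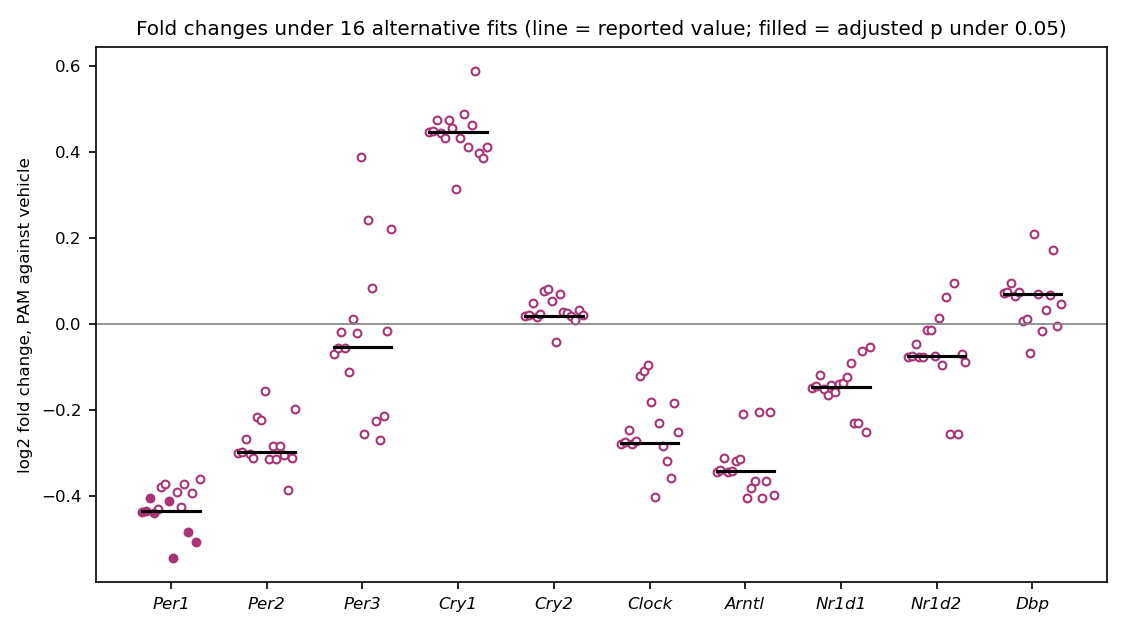
Log2 fold change of each clock gene (vertical axis) under the 16 alternative fits (points; filled where the adjusted p was under 0.05), with the reported value as a line. The 16 values of Per1 all lie below 0 and 8 are filled; those of Per3, Cry2, Nr1d2 and Dbp lie on both sides of 0.

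Over the 16 alternatives, which changed the tool, scaling, filter, blocking, length trend or libraries, Per1 passed in 8 and did not in 8, and none of the 144 values of the other 9 members passed (edgeR or DESeq2, adjusted p under 0.05). Per1, Per2, Clock, Arntl and Nr1d1 stayed below 0 and Cry1 above 0 in every alternative, as the plot of alternative fits shows.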

How the data were processed

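Polyadenylated RNA was sequenced from 8 libraries. The authors deposited whole-number gene counts per library with exonic lengths, in featureCounts layout per the file headers. The submitters' processing notes list the tools STAR, featureCounts, DESeq and DESeq2 and the build Rnor_6.0; strandedness is not given in the sources used here. Their deposited comparison table holds group means of normalized counts (signal), log2 fold changes and p-values, per the file headers, and gave the gene symbols.

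Counts were fitted across all genes with edgeR 4.0.16 (R 4.3.3; filterByExpr, TMM, robust quasi-likelihood F test, group as the only term, Benjamini-Hochberg adjustment, threshold 0.05). SE is the log2 fold change over the square root of F, and 95% intervals use the t distribution. CPM uses TMM-scaled library sizes; ratios use log2 CPM with a prior count of 2. Where no read was counted, the limit of 3 counts equals 0.683 to 1.01 CPM, for counting error only. Replicates differed beyond sampling noise, and more so with PAM. The chi-square per degree of freedom was 2.77 to 4.11 between vehicle libraries and 4.36 to 14.8 between PAM libraries. The verbs rose and fell are used for genes past the test. Named genes are the 10 members and every listed clock gene past the test; members and lists were chosen with earlier results of these data known. Alternatives were DESeq2 1.42.0, upper-quartile or RLE scaling, omission of the low-count filter, a replicate block, correction of the length trend per library by loess (span 0.5), block and trend together, omission of each library, and of both PAM 3 and PAM 4. The fits were tested on simulated data.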

Additional observations from a re-analysis of the deposited data

Results flagged for a closer look

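One value stood apart from its group by the gap to its nearest neighbour: Cry1 in PAM 1, at 19.6 CPM against 29.9 to 31.2 CPM in the other 3 PAM libraries. It was 1 of 26 groups of 4 examined (13 genes in both conditions), and chance alone gives about 1 in 20.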

How the results depend on the processing

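The number of members that fell was 1 in the main test and 0 with the replicate block, with the length trend removed and with both together, and 0 to 1 over the fits without 1 library. Other clock genes that rose numbered 2 (Rorb and Wee1, named after their values were seen) without both PAM 3 and PAM 4 and 0 to 1 without 1 library, and those that fell 1 to 3 without 1 library; all counts are from edgeR at an adjusted p under 0.05, and the causes were not tested. Signs that turned were those of uncalled members. Per3 was at 0.013 with the length trend removed, 0.39 without both PAM 3 and PAM 4, and -0.27 to 0.24 without 1 library. Dbp was at -0.067 without both PAM 3 and PAM 4 and -0.016 to 0.21 without 1 library. Without 1 library Cry2 ran from -0.041 to 0.070 and Nr1d2 from -0.26 to 0.097. The median of the 10 members ran from -0.25 to -0.053 over all 16 alternatives, and that of the other clock genes from -0.17 to 0.043. The labels do not say what a replicate number marks, so it was not taken as a pairing. Same-numbered vehicle and PAM libraries did not deviate together (r = 0.052, -0.045, 0.068 and -0.060 across tested genes). These correlations cannot settle whether libraries were paired, as the PAM deviations also hold the length trend of PAM 3 and PAM 4. With the replicate block Per1 was at -0.43 (edgeR, adjusted p = 0.0586). All genes called numbered 2218, and 1527 to 2900 over the alternatives. Counting error was 19.3% to 21.0% for Per3 and 14.7% to 15.6% for Nr1d2, below their spread between libraries of 49.6% to 52.5% and 28.2% to 30.2%.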
